A study of Canis lupus familiaris with 62 samples.

Results

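Of 62 canine meningiomas, 7 had low expression of the genes of dog chromosome 27 as a whole. They were chosen by a score from the expression values themselves. Counts were scaled to library size and put on the log2 scale (log2 CPM), each autosomal gene whose mean was 2 or more was centred on its mean over all tumours, and the values were averaged per autosome and tumour. The median of a tumour's 38 autosome scores was then subtracted, and a tumour was taken as low where chromosome 27 scored under -0.3. The other 55 tumours are called the rest. The score of chromosome 27 and the values of its genes made this choice and are given as a description. The other autosomes entered the choice only through the median that was subtracted. The labels and library measures did not enter it. Comparisons were made on genes and scores of other chromosomes, on the labels and on the library measures.

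The study measured RNA from dogs with naturally occurring meningioma, 1 library per tumour, from paraffin-embedded material. The 7 low tumours came from 5 dogs labelled untreated and 2 dogs labelled with surgery alone (Sx). The rest came from 22 untreated dogs, 11 with Sx, 9 with surgery and radiotherapy (SxRT), 7 in the steroid group (6 of them also labelled with an antiepileptic drug), 3 with radiotherapy alone (RT) and 3 with an antiepileptic drug alone. Tissue came from surgery or from necropsy soon after death, and the labels do not say which for a given dog. No normal meninges were among the samples, so a low score is low only relative to the other tumours. The total per library was 2894630 to 8385232 counts in the low tumours and 1967061 to 12063982 counts in the rest. The file pairs no gene name with its identifiers, so the tissue label could not be checked against markers, and no cell type was measured.

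Meningiomas arise from the meninges, the membranes around the brain and spinal cord, and are the most common primary brain tumours of dogs. In human meningioma, loss of whole chromosomes or chromosome arms is a well known feature, and the number of such losses tends to be higher in tumours of higher grade. Genes on a lost chromosome are usually expressed at a lower level on average, so that mean expression along a chromosome is used to screen tumours for gains and losses. DNA copy number was not measured here, and a low score is a statement on RNA. In bulk tissue, fewer cells with a change and a smaller change in every cell cannot be told apart.

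The score of chromosome 27 was -0.66 in untreated replicate 21, -0.60 in Sx replicate 10, -0.58 in Sx replicate 11, -0.53 in untreated replicate 23, -0.51 in untreated replicate 9, -0.41 in untreated replicate 15 and -0.39 in untreated replicate 17. In the rest it ran from -0.26 to 0.32 with a median of 0.09. The means were -0.53 ± 0.10 in the low tumours (SD, n = 7) and 0.06 ± 0.13 in the rest (SD, n = 55), which is a difference of -0.59, or expression 0.665 times as high on average. Just outside the threshold lay Sx replicate 13 at -0.26, untreated replicate 7 at -0.25 and antiepileptic replicate 3 at -0.23. The gap of 0.13 between untreated replicate 17 and Sx replicate 13 was the widest between neighbouring scores anywhere below the median of the tumours.

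**Figure D1:**
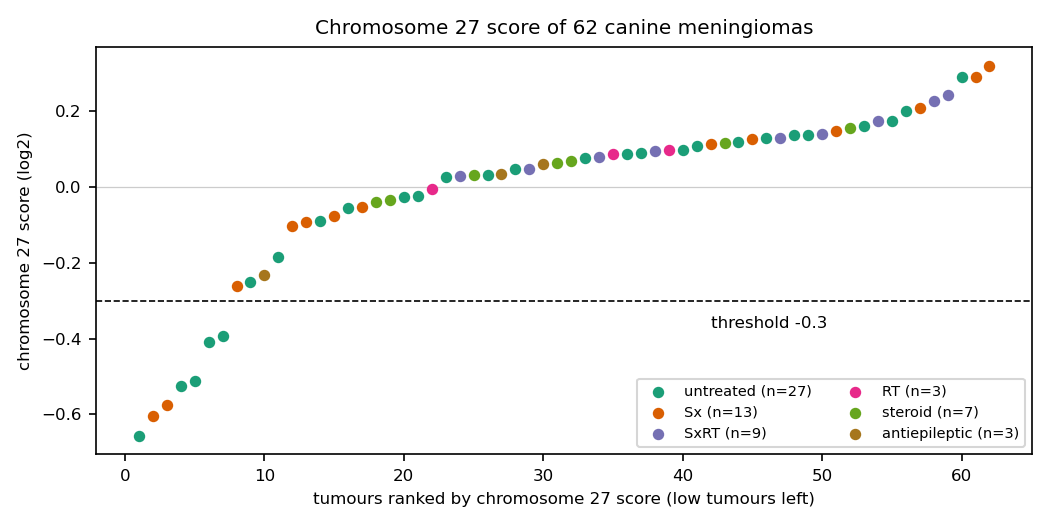
Chromosome 27 score (log2, vertical axis) of each of the 62 tumours, ranked from lowest to highest and coloured by treatment label, with the threshold of -0.3 as a dashed line. The 7 low tumours sit between -0.66 and -0.39 at the left, 5 untreated and 2 Sx, and the next tumour is at -0.26.

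The lower expression was spread over the genes of the chromosome and was not carried by a few of them. The file has 712 genes on chromosome 27, of which 288 entered the score, out of 11486 autosomal genes scored. Of the 288, 263 (91.3%) had a lower mean in the low tumours than in the rest, against 43.6% of the 11198 genes on the other autosomes. The median difference of means was -0.54 on chromosome 27 and 0.06 elsewhere. The middle of the distribution on chromosome 27, from the lower to the upper quartile, ran from -0.82 to -0.26. No gene of the 288 had all 7 low tumours under every other tumour, and 84 (29.2%) had all 7 under the median of the rest, against 366 genes (3.27%) on the other autosomes. Split at the median, the higher expressed genes had a median difference of -0.51 and the lower expressed genes of -0.56, and the longer genes had -0.54 and the shorter -0.53. In each low tumour between 72.6% and 85.1% of chromosome 27 genes lay under the median of the rest, and in the tumours of the rest between 30.2% and 68.8%. In the test of single genes described further below, 20 of 448 tested chromosome 27 genes (4.46%) were lower at an adjusted p under 0.05 and 0 were higher, from which nothing is read since they chose the tumours.

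**Figure D2:**
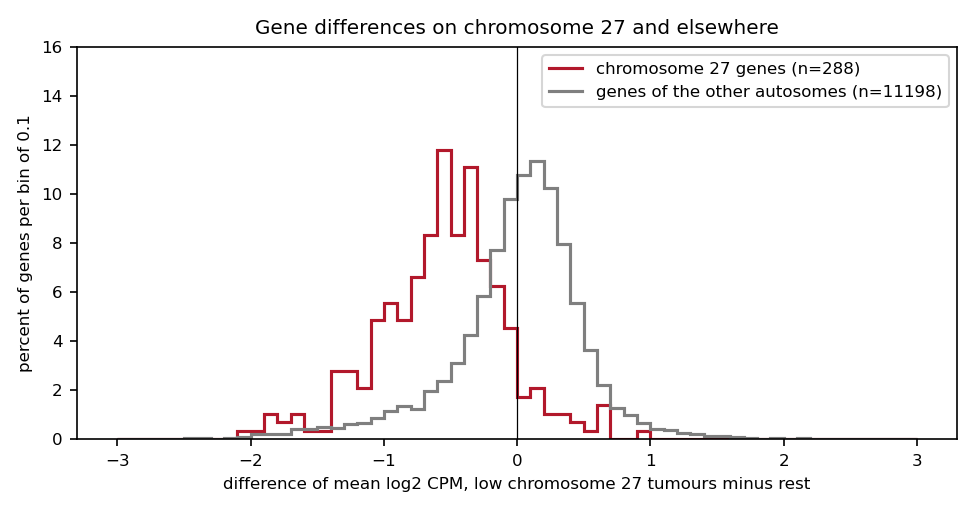
Difference of mean log2 CPM, low chromosome 27 tumours minus the rest (horizontal axis), for the 288 scored genes of chromosome 27 (red) and the 11198 scored genes of the other autosomes (grey), as the percent of genes per bin (vertical axis). The chromosome 27 genes centre on -0.54 and the others on 0.06.

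Along the chromosome the lower expression reached from end to end in 4 of the 7 tumours and left a stretch closer to the rest in the other 3. The chromosome was read in 5 bins of 10 Mb by gene start on CanFam3.1, holding 98, 35, 35, 79 and 41 scored genes. The difference between low tumours and the rest was -0.61 in the first bin, -0.81 in the second, -0.40 in the third, -0.51 in the fourth and -0.66 in the last. All 7 low tumours lay under all 55 others in the last bin, where they scored between -0.69 and -0.47. In the first and second bins 5 did and in the fourth 4 did. In the third bin none did, and all 7 lay under the median of the rest. The genes of these bins made the score that chose the tumours, so these counts are a description only.

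Untreated replicate 21, Sx replicate 10, Sx replicate 11 and untreated replicate 23 were under -0.3 in all 5 bins. Untreated replicate 9 was under it in 4 bins, with -0.29 in the second bin, where Sx replicate 11 had -1.09. Untreated replicate 15 had -0.17 in the third bin and -0.22 in the fourth, against -0.59 in its first and -0.56 in its last. Untreated replicate 17 had -0.19 in the third bin and -0.08 in the fourth, against -0.87 in its second and -0.47 in its last. Thus the 2 tumours nearest to the threshold were low at both ends of the chromosome and closer to the rest between 20 and 40 Mb. In the rest, 43 of 55 tumours had no bin under -0.3, 8 had 1, 3 had 2 and 1 had 3. The tumour with 3 was antiepileptic replicate 3, with -0.48, -0.55 and -0.65 in the first 3 bins and 0.26 and 0.02 in the last 2, so that its score of -0.23 averages a low and a usual stretch. Sx replicate 13, the first outside the threshold, was low in the second bin (-0.51) and the last (-0.41).

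The labels of the 7 dogs gave no difference past the threshold. Of the low tumours 6 of 7 were from males, against 25 of 55 in the rest (2-sided Fisher's exact test p = 0.104, adjusted over 5 labels 0.259). Intact dogs made up 3 of 7 in the low tumours and 4 of 55 in the rest, with an exact p = 0.0262 that came to 0.131 after adjustment. Surgery was recorded for 2 of 7 and 20 of 55 dogs, sample names beginning with S for 2 of 7 and 19 of 55, and name numbers from 17 to 22 for 4 of 7 and 25 of 55, each with an adjusted p = 1 in the same exact test. What the letters and numbers of the names stand for is not given in the sources used here.

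Boxers were 3 of the 7 low tumours (untreated replicate 21, untreated replicate 15 and Sx replicate 11) and 4 of the rest, and breed was not tested. The other 4 low tumours came from a Shih Tzu, a Miniature Schnauzer, a Golden Retriever and a Cardigan Welsh Corgi. The survival label was 0 for all 5 untreated low tumours and for 11 of the 22 untreated dogs in the rest, 768 for Sx replicate 10 and 14 for Sx replicate 11. Its unit is not given in the sources used here, and Sx replicate 11 was lost to follow-up.

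No measure of depth or makeup separated the libraries of the low tumours from the others at an adjusted p under 0.05. Totals averaged 4427628 ± 1947483 counts in the low tumours and 4619323 ± 1932571 in the rest (exact permutation p = 0.812, adjusted over 6 measures 0.933). Mitochondrial genes took 10.2% ± 2.43 of counts in the low tumours and 14.0% ± 8.21 in the rest, with an exact permutation p = 0.215 (adjusted 0.645). The first principal component of the genes off chromosome 27 was -33.2 ± 24.2 in the low tumours and 4.22 ± 57.9 in the rest (exact permutation p = 0.0972, adjusted 0.583), and 6 of the 7 lay under the median of the rest. The genes with a count, the share of even counts and the second component had adjusted exact p of 0.933.

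Other autosomes moved along with chromosome 27. Each was scored in the same way, less the median of the 37 autosomes other than 27, and tested by an exact 2-sided permutation of the mean difference over tumours, adjusted over 38 chromosomes with X. Chromosomes 3 and 17 were lower in the low tumours, and chromosomes 12, 22 and 23 were higher. Chromosome 34 at an adjusted exact p = 0.0532 and chromosome 36 at 0.0764 came next and did not pass.

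Chromosome 3 had the largest difference. Its score was -0.73 in untreated replicate 21, -0.73 in Sx replicate 10, -0.60 in untreated replicate 9 and -0.45 in untreated replicate 17, and between -0.06 and 0.06 in the other 3 low tumours, while in the rest it ran from -0.50 to 0.52 with a median of 0.08. All 7 low tumours thus lay under the median of the rest, 4 of them well apart from it. The means were -0.36 ± 0.35 in the low tumours and 0.04 ± 0.17 in the rest, a difference of -0.40 (exact permutation, adjusted p = 0.00424). The difference was negative in all 10 bins along the chromosome, from -0.69 to -0.17. Among single genes, 0 of 522 on chromosome 3 passed edgeR's test, against 0.145% of all genes off chromosome 27. At an unadjusted p under 0.05 there were 76 (14.6%), 74 lower and 2 higher, against 10.9% off chromosome 27. A lean to lower genes was not particular to chromosome 3. Chromosome 6, whose score was not called, had 87 lower and 4 higher of 832. The median log2 fold change on chromosome 3 was -0.32, against -0.03 off chromosome 27.

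Chromosome 17 was low in 6 of the 7 tumours. Untreated replicate 9 had a score of -0.47, untreated replicates 21 and 15 had -0.43, Sx replicate 11 had -0.41, untreated replicate 23 had -0.40 and untreated replicate 17 had -0.34, while Sx replicate 10 stood apart on the other side at 0.33. The rest ran from -0.52 to 0.44, with a median of 0.11. Means were -0.31 ± 0.28 in the low tumours and 0.04 ± 0.24 in the rest, a difference of -0.34 (exact permutation, adjusted p = 0.00962). All 7 bins along chromosome 17 were lower, by -0.44 to -0.28. Of 575 single genes, 1 (0.174%) passed edgeR's test as lower, a share near that of all genes off chromosome 27 (0.145%). At an unadjusted p under 0.05 there were 113 (19.7%, against 10.9%), 112 lower and 1 higher. The median log2 fold change was -0.39, against -0.03 off chromosome 27.

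Most of the 7 tumours were also under -0.3 on chromosome 17, and 4 of them on chromosome 3. A chromosome 17 score under -0.3 occurred in 6 of 7 low tumours (85.7%) and in 9 of 55 others (16.4%). Seen from chromosome 17, 6 of its 15 low tumours (40%) were also low in chromosome 27, against 1 of the 47 others (2.13%). A chromosome 3 score under -0.3 occurred in 4 of 7 (57.1%) and in 5 of 55 (9.09%), and 4 of the 9 tumours low in chromosome 3 were also low in chromosome 27. In 3 tumours all 3 chromosomes were low (untreated replicates 21, 9 and 17), and 1 tumour of the rest was low in 17 and 3. None of the 7 was low in chromosome 27 and in neither 17 nor 3. The 9 tumours of the rest that were low in chromosome 17 had chromosome 27 scores from -0.23 to 0.23 with a median of 0.11, so chromosome 17 was also low where chromosome 27 was not.

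**Figure D3:**
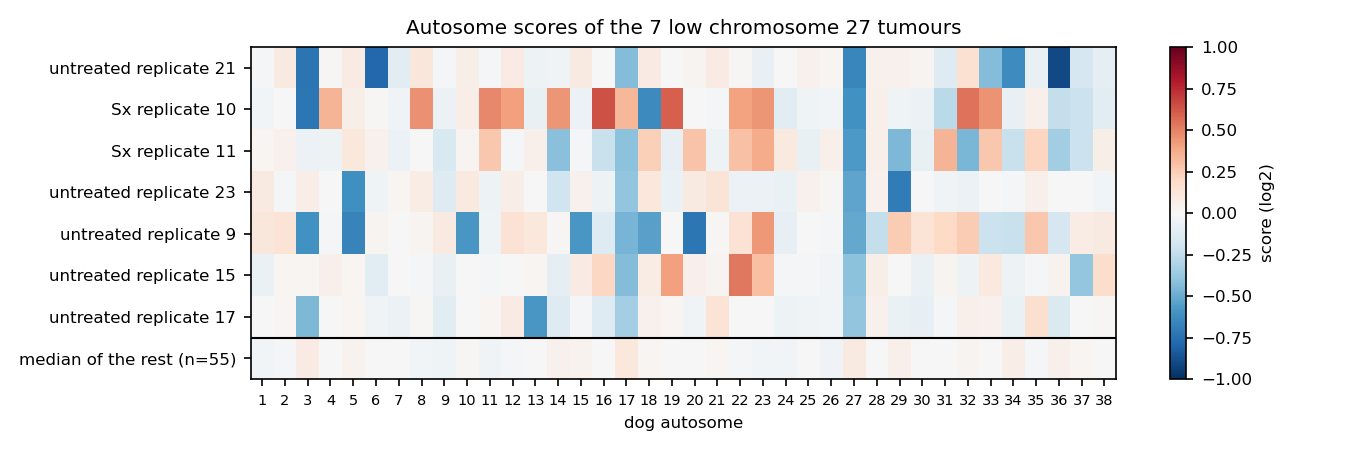
Scores of the 38 autosomes (columns) in the 7 low chromosome 27 tumours (rows, lowest chromosome 27 score at the top) and the median of the 55 others (bottom row), on the log2 scale from -1 (blue) to 1 (red). Chromosome 27 is blue in all 7 rows by choice, chromosome 17 in 6 and chromosome 3 strongly in 4, and most other colours appear in single rows.

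The 3 chromosomes that were higher moved by smaller amounts. Chromosome 22 scored 0.53 in untreated replicate 15, 0.40 in Sx replicate 10 and 0.29 in Sx replicate 11 and no more than 0.15 in the other 4. Its means were 0.19 ± 0.22 in the low tumours and -0.03 ± 0.11 in the rest (difference 0.22, exact permutation, adjusted p = 0.00962). Chromosome 23 scored over 0.3 in 4 of the 7 low tumours and in 1 of 55 others, with means of 0.20 ± 0.24 and -0.03 ± 0.16 (difference 0.23, adjusted exact permutation p = 0.00962). Chromosome 12 had means of 0.11 ± 0.14 in the low tumours and -0.02 ± 0.08 in the rest (difference 0.13, adjusted exact permutation p = 0.00962), with 0.41 in Sx replicate 10 and no more than 0.15 in the other 6. The difference was positive in 6 of 6 bins of chromosome 23, 6 of 7 of chromosome 22 and 6 of 8 of chromosome 12.

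**Figure D4:**
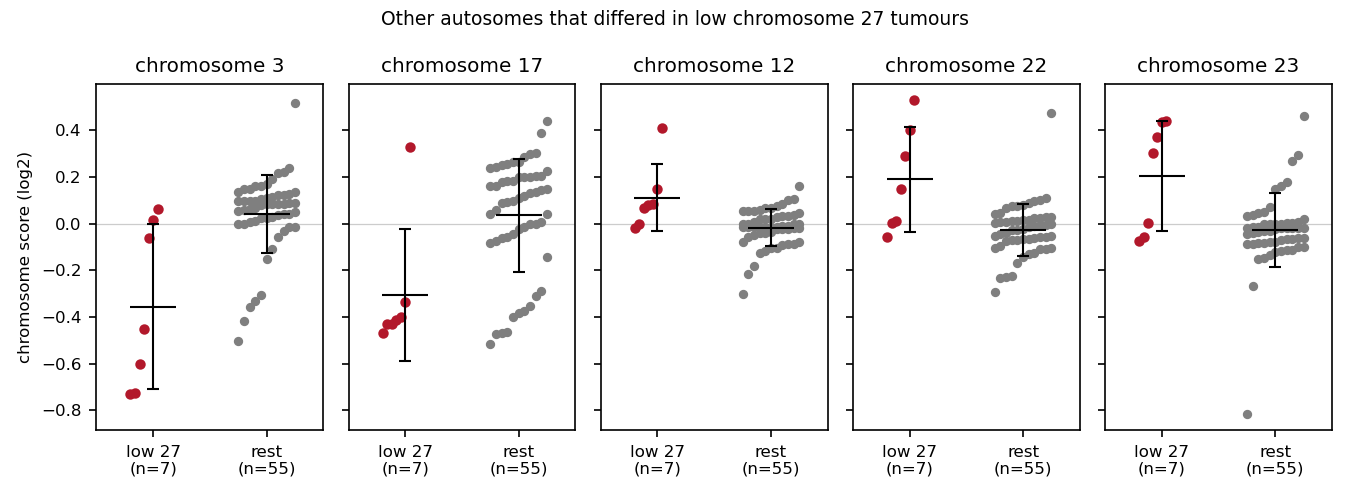
Scores (log2, vertical axis) of chromosomes 3, 17, 12, 22 and 23 in the 7 low chromosome 27 tumours (red, left) and the 55 others (grey, right), each point 1 tumour, with mean and SD as bars. The groups overlap on all 5, 1 red point stands high on chromosome 17 (0.33), and 9 grey points lie under -0.3 there.

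The calls for chromosomes 3 and 17 held whichever of the 7 low tumours was left out, with adjusted exact permutation p of at most 0.0229 for chromosome 3 and 0.0482 for chromosome 17. Those for the 3 higher chromosomes did not. Without Sx replicate 10 the adjusted exact p was 0.124 for chromosome 12, 0.0595 for chromosome 22 and 0.117 for chromosome 23, without Sx replicate 11 it was 0.0901 for chromosome 23, and without untreated replicate 9 it was 0.0508 for chromosome 12 and 0.0853 for chromosome 23. Without untreated replicate 15 chromosomes 34 and 36 were added to the 5 called, and without untreated replicate 23 chromosome 34 was. Within groups of sample names, the 5 low tumours with N names against 36 others kept chromosome 3 (-0.44) and chromosome 17 (-0.46) as called. The 2 with S names against 19 others gave a difference of -0.34 on chromosome 3 and -0.06 on chromosome 17, neither called. Among male dogs, 6 low tumours against 25 others, the differences were -0.32 on chromosome 3 and -0.31 on chromosome 17 with an adjusted exact permutation p = 0.0834 for each. Among neutered dogs chromosome 3 differed by -0.54 (adjusted exact p = 0.00234) and chromosome 17 by -0.26 (0.152), and without Boxers by -0.47 (0.00708) and -0.25 (0.224).

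The low tumours had more deviating autosomes, counting among the other 37 those with a score beyond 0.3 in size. The number was 14 in Sx replicate 10, 8 in untreated replicate 9, 7 in Sx replicate 11, 6 in untreated replicate 21, 5 in untreated replicate 15 and 3 in untreated replicates 23 and 17. In the rest it ran from 0 to 18 with a median of 1, and 19 tumours had none. Among tumours of the rest low in chromosome 3, Sx replicate 13 had 11, SxRT replicate 4 had 8 and Sx replicate 9 had 7. In the same set Sx replicate 6 had 6 and untreated replicate 1 had 1. The 9 tumours of the rest low in chromosome 17 had 1 to 7. A high number was thus not particular to tumours low in chromosome 27. The means were 6.57 ± 3.78 in the low tumours and 2.38 ± 3.80 in the rest (exact permutation p = 0.0130). With chromosomes 3 and 17 not counted the means were 5.00 ± 3.61 and 2.05 ± 3.60 (exact permutation p = 0.0418). Without Sx replicate 10 the difference was 2.95 autosomes and no longer passed (exact permutation p = 0.0579).

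Low scores outnumbered high ones among these deviations, as they also did on average in the rest. There were 46 in the 7 tumours together, 28 low and 18 high, on 25 different autosomes, and 13 of those autosomes deviated in a single low tumour. Only chromosomes 3, 17 and 23 deviated in 3 or more of the 7. The mean number of low autosomes was 4.00 ± 2.00 in the low tumours and 1.36 ± 2.58 in the rest (exact permutation p = 0.0215), and that of high autosomes 2.57 ± 4.31 and 1.02 ± 1.84 (exact permutation p = 0.0735), where 12 of the 18 high ones were in Sx replicate 10.

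Each tumour carried its own set. Untreated replicate 21 was low in chromosomes 36 (-0.91), 6 (-0.79), 34 (-0.63) and 33 (-0.44) beside 3 and 17. Untreated replicate 9 was low in chromosomes 20 (-0.72), 5 (-0.67), 15 (-0.58), 10 (-0.58) and 18 (-0.54). Untreated replicate 23 was low in chromosomes 29 (-0.70) and 5 (-0.61), and untreated replicate 17 in chromosome 13 (-0.58). Sx replicate 11 was low in chromosomes 32 (-0.46), 29 (-0.45), 14 (-0.42) and 36 (-0.35). Untreated replicate 15 was low in chromosome 37 (-0.38) and high in 22 (0.53) and 19 (0.41). Sx replicate 10 differed from the others in that 12 of its deviations were high, with 0.64 on chromosome 16, 0.60 on 19 and 0.54 on 32, and its 2 low ones were chromosomes 3 and 18 (-0.64).

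Over the 37 other autosomes, the scores of 2 low tumours correlated with a median Pearson r of 0.21 across 21 pairs, from -0.14 to 0.44. Pairs of 1 low tumour and 1 of the rest had a median of -0.12 (385 pairs) and pairs within the rest -0.01 (1485 pairs). These are descriptions across chromosomes of different gene number, in pairs that share tumours. The most alike were Sx replicate 11 and untreated replicate 15 (0.44), both from male Boxers. Untreated replicate 21, from a female Boxer, had 0.18 with the former and 0.21 with the latter. The least alike were Sx replicate 10 and untreated replicate 23 (-0.14), also both from males.

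Few single genes outside chromosome 27 differed between the groups. In a quasi-likelihood fit with edgeR that took account of treatment, sex and neuter status, 26 of 17922 genes off chromosome 27 (0.145%) had an adjusted p under 0.05, 21 higher (0.117%) and 5 lower (0.0279%) in the low tumours. At an unadjusted p under 0.05 there were 1945 (10.9%). The 21 higher genes had log2 fold changes from 0.63 to 6.23 with a median of 2.74, and the 5 lower ones from -7.80 to -0.89 with a median of -1.28. Among the 21, 5 had every low tumour above the median of the rest, and among the 5, 4 had every low tumour at or under it. These genes were called on the same tumours, so the counts only describe them. Of the 11198 scored genes on the other autosomes, 366 (3.27%) had every low tumour under that median. The share above it was not computed. By DESeq2 there were 37 higher and 234 lower, by limma voom with quality weights 52 and 6, and each shared 21 of the 26.

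Higher genes lay on 13 chromosomes or scaffolds. Chromosome 16 held 3 of 364 genes tested (0.824%) and chromosome 23 held 3 of 323 (0.929%), against 0.117% off chromosome 27. Chromosome 2 held 2 of 729 (0.274%), chromosome 12 held 2 of 546 (0.366%), chromosome 15 held 2 of 469 (0.426%) and chromosome 32 held 2 of 219 (0.913%). The 3 on chromosome 16 were neighbours, within 104 kb from 12498728 to 12602256 on CanFam3.1, and made up 3 of the 4 genes tested there. They were singled out after their values were seen. Of these, ENSCAFG00000033547 had a log2 CPM of 5.47 in Sx replicate 10, whose chromosome 16 score was 0.64. It was 2.75 in untreated replicate 15 and -1.16 to 0.58 in the other low tumours. ENSCAFG00000047077 had 5.68 to 6.60, above the median of the rest in all 7. Of the 5 lower genes 2 were on chromosome 10 (638 genes tested) and the others on chromosomes 17 (575), 34 (221) and 36 (152).

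The number of calls changed with single libraries. Without untreated replicate 21 none passed in edgeR, with 1381 of 17922 genes at an unadjusted p under 0.05. Without untreated replicate 15 there were 9 higher and 0 lower, without untreated replicate 17 there were 13 and 0, without Sx replicate 10 there were 11 and 1, without Sx replicate 11 there were 12 and 0, and without untreated replicate 23 there were 16 and 2. Without untreated replicate 9 the number was 21 and 6. With the score of chromosome 3 in the model 1 higher and 1 lower were called, neither among the 26, and with that of chromosome 17 there were 8 and 0, of which 6 were among the 26. Whether genes off chromosome 27 differ with it or with these chromosomes cannot be told apart for tumours that carry both.

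Among called genes that averaged 1 or more in log2 CPM and whose group medians lay 0.5 or more apart in the direction of the change, the 2 with the largest increase and the 2 with the largest decrease are described by identifier, as the files pair no name with them. The identifier ENSCAFG00000006073 (chromosome 25, 3167359 to 3208411, CanFam3.1, plus strand) had the largest increase of these. Its log2 CPM was 13.36 in untreated replicate 21, 11.99 in untreated replicate 17, 10.06 in Sx replicate 11, 9.80 in untreated replicate 15 and 9.11 in Sx replicate 10, and only 5.00 in untreated replicate 9 and 3.83 in untreated replicate 23. The rest ran from 2.11 to 11.55 with a median of 6.98, so 5 of 7 were above the median of the rest and 2 above every other tumour. The fitted log2 fold change was 3.56 with a standard error of 0.74 (edgeR, adjusted p = 0.0150). Untreated replicate 21 held 40070 of the 68834 counts in the low tumours, and without it the fold change was 2.17 (edgeR, adjusted p = 0.508). With the chromosome 3 score in the model it was 2.07 (edgeR, adjusted p = 0.727).

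ENSCAFG00000031014 (chromosome 16, 12523467 to 12535885, CanFam3.1, plus strand) is 1 of the 3 neighbours. Its log2 CPM was 8.25 in Sx replicate 10, 5.30 in untreated replicate 15, 4.19 in untreated replicate 21 and 3.82 in Sx replicate 11. In the other 3 low tumours it lay between -1.16, the value of a count of 0, and 0.59, under the median of the rest of 0.94. Of the 1316 counts of this gene in the low tumours, 1008 came from Sx replicate 10. The fitted log2 fold change was 3.38 with a standard error of 0.74 (edgeR, adjusted p = 0.0259). It was 3.34 without untreated replicate 21, 3.15 without untreated replicate 15 and 2.81 without Sx replicate 10, with adjusted p in edgeR of 0.169, 0.120 and 0.248.

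Both lower genes lie on chromosome 10. ENSCAFG00000002489 (46114348 to 46224363, CanFam3.1, plus strand) had a log2 CPM between 1.03 and 3.49 with a median of 2.40 in the low tumours, and between -1.16 and 7.91 with a median of 4.35 in the rest. All 7 low tumours were under the median of the rest, and 13 of 55 others were under the highest of the 7. Its log2 fold change was -3.12 with a standard error of 0.72 (edgeR, adjusted p = 0.0336). With 1 low tumour left out it stayed between -3.44 and -2.96, and it passed in edgeR only without untreated replicate 9 (adjusted p = 0.0373, and 0.0585 to 0.151 without each other low tumour).

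ENSCAFG00000000789 (20160206 to 20243160, CanFam3.1, plus strand) had a count of 0 in 5 of the 7 low tumours, 10 in Sx replicate 11 and 4 in untreated replicate 23, which makes 14 in all. In the rest 11 of 55 libraries had 0 and the highest had 450, 1863 in all. The median log2 CPM was -1.16 in the low tumours and 1.41 in the rest. The fitted log2 fold change was -7.80 with a standard error of 1.88 (edgeR, adjusted p = 0.0472) and rests on those 14 counts. Both tumours with counts came from intact dogs, and the 4 low tumours of neutered dogs all had 0. Without treatment, sex and neuter status in the model the fold change was -4.45 (edgeR, adjusted p = 0.173). With these covariates kept and 1 low tumour left out, it was -8.16 to -7.45 and never passed (edgeR, adjusted p = 0.101 to 0.163). The mean log2 CPM was -0.68 ± 0.83 in the low tumours and 1.40 ± 2.06 in the rest, a smaller gap. None of the 4 overlaps another gene of the file.

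**Figure D5:**
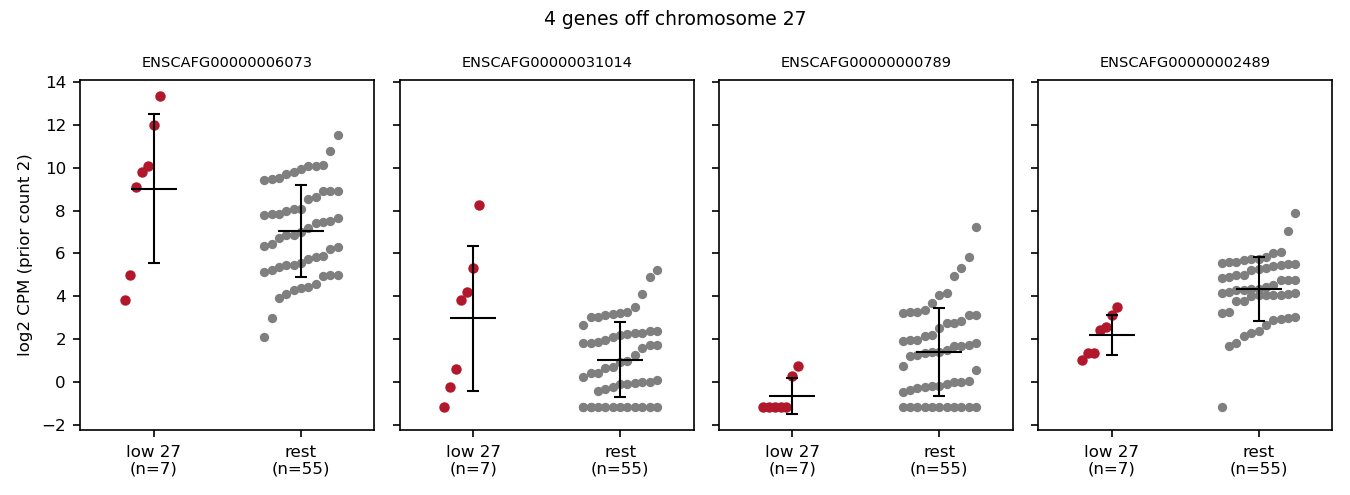
Log2 CPM (prior count 2, vertical axis) of 4 genes off chromosome 27 in the 7 low chromosome 27 tumours (red, left) and the 55 others (grey, right), each point 1 tumour, with mean and SD as bars. The 2 genes at the left are higher in some of the red points only. The 2 at the right have all red points under the median of the grey ones. Points at -1.16, a count of 0, are 1 red and 13 grey for ENSCAFG00000031014. They are 5 red and 11 grey for ENSCAFG00000000789 and 1 grey for ENSCAFG00000002489.

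Among the 55 other tumours, where the chromosome 27 score ran from -0.26 to 0.32, none of the 26 genes and none of the 5 chromosomes was called as following it. In a fit of the slope on the score, edgeR called 43 of 17922 genes off chromosome 27 (0.240%), 33 of them rising and 10 falling with it, and none was among the 26. At an unadjusted p under 0.05 there were 1574 (8.78%), and 1 of the 26 was among them. The adjusted p of the slope was 0.578 to 0.984 for the 4 genes named. Its sign went with the group difference for ENSCAFG00000006073 (-1.44 per unit of score) and ENSCAFG00000000789 (0.42). It went against that difference for ENSCAFG00000031014 (4.90) and ENSCAFG00000002489 (-1.64). Pearson r of the chromosome 27 score with other chromosomes was -0.11 for chromosome 3 (permutation p = 0.431, Spearman rho -0.18, p = 0.178) and -0.08 for chromosome 17 (permutation p = 0.568, rho -0.05, p = 0.695). Chromosomes 12, 22 and 23 had r of -0.02, -0.01 and 0.23 and rho of -0.08, -0.18 and 0.18, with permutation p, adjusted over 38 chromosomes, from 0.270 to 0.972 for r and from 0.393 to 0.772 for rho. Without the 2 tumours farthest from the median score, r was -0.10 for chromosome 3, 0.04 for 17, -0.11 for 12, 0.03 for 22 and 0.33 for 23.

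By Pearson r, 4 other chromosomes passed in the rest, and by Spearman rho none did. They were chromosome 19 (r -0.49, rho -0.37), chromosome 31 (r 0.48, rho 0.35), chromosome 35 (r 0.47, rho 0.42) and chromosome 8 (r -0.39, rho 0.00), with adjusted permutation p of 0.00399, 0.00399, 0.00494 and 0.0375 for r and of 0.0796, 0.0796, 0.0616 and 1.00 for rho. Without the 2 farthest tumours r was -0.31, 0.40, 0.41 and -0.19, with adjusted permutation p of 0.0848, 0.0242, 0.0242 and 0.388. Chromosomes 19 and 8 thus no longer passed without those tumours. For chromosome 19 both measures kept their sign and shrank, with a rho of -0.29 (adjusted permutation p = 0.183). Without those tumours 6 chromosomes passed by r, which were 31 and 35 and also 15 (-0.46), 26 (0.43), 37 (-0.41) and 29 (-0.37), and by rho again none did (lowest adjusted permutation p = 0.0776).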

How the data were processed

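Libraries from 62 canine meningiomas, 1 for each dog, were made from paraffin sections archived in the years 2011 to 2022 (150 nt pairs), per the labels' protocols. The deposited table holds raw counts for 30951 genes. Per the file headers, the authors used featureCounts 2.0.4 and Ensembl release 100 exons (CanFam3.1), with primary alignments only and strand ignored. The header sets the paired option without counting fragments, so both reads of a pair count and precision is lower than totals imply. Reads of a gene and of another on its opposite strand are therefore mixed where they overlap. STAR and DESeq2 are named, without version, in the submitters' processing notes, and how reads shared between near-identical genes were treated is not given in the sources used here.

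Totals ran from 1967061 to 12063982 (median 4190135). Over 1891 pairs of libraries the smallest chi-square per gene was 11.8, so no library was a copy of another. Each dog is 1 sample. Replicate numbers follow accession order and are names only. The name table at hand (assembly UU_Cfam_GSD_1.0) matched 0 identifiers, so no gene is named, and gene lists, cell type markers and sequences were not used.

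Counts were scaled by TMM (factors 0.556 to 1.24) and turned into log2 CPM with a prior count of 2. The 18370 genes that passed filterByExpr for the treatment groups were fitted with edgeR 4.0.16 in R 4.3.3: low chromosome 27 tumours against the rest, with treatment, sex and neuter status, and Benjamini-Hochberg adjustment over all genes tested, at 0.05. Chromosome 27 genes stayed in the fit. Chromosome scores, library measures and numbers of deviating autosomes were compared by exact 2-sided permutation over all ways to choose 7 of 62 tumours, correlations by 100000 permutations, labels by Fisher's exact test (scipy 1.17.1). Genes were named where the adjusted p was under 0.05, mean log2 CPM was 1 or more and group medians were 0.5 or more apart in the direction of the fold change, taking the 2 largest changes each way. In simulated counts edgeR recovered 26.0% of genes changed by 1 and 45.0% of those changed by 2 on the log2 scale in this comparison (18370 genes, 100 each), with 5 false calls.

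The 7 tumours, the tests and the lists were chosen with earlier results of these data known. Alternatives covered scaling, filter, tool (DESeq2 1.42.0, limma 3.58.1), covariates, threshold, name groups and single tumours left out. Those with chromosome 3 or 17 scores as covariates or uncounted, and in neutered, male, untreated or non-Boxer dogs, were chosen after seeing the data.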

Additional observations from a re-analysis of the deposited data

Results flagged for a closer look

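Among the 7 low chromosome 27 tumours, 49 measures (the scores of the 37 other autosomes and X, 6 library measures, the number of deviating autosomes and 4 genes) were searched for a tumour far from the other 6, by the gap to its neighbour over the whole range (over 0.568 for 7 samples). Chance alone flags about 1 in 20 such groups, and 13 of the 49 were flagged, all in 4 tumours.

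Sx replicate 10 had the highest score, far from the next, on chromosome 4 (0.34, next 0.05), chromosome 8 (0.46, next 0.11), chromosome 12 (0.41, next 0.15) and chromosome 17 (0.33, next -0.34). Untreated replicate 21 had the lowest on chromosome 6 (-0.79, next -0.12), chromosome 34 (-0.63, next -0.23) and chromosome 36 (-0.91, next -0.35). Untreated replicate 9 had the lowest on chromosome 10 (-0.58, next -0.00), chromosome 15 (-0.58, next -0.06), chromosome 20 (-0.72, next -0.04) and chromosome 28 (-0.24, next 0.04), and the highest second principal component of the genes off chromosome 27 (51.1, next -2.16). Untreated replicate 17 had the lowest score on chromosome 13 (-0.58, next -0.07).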

How the results depend on the processing

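The same 7 tumours were chosen under each of the alternatives tried for the score, and a threshold of -0.25 or a prior count of 0.5 added Sx replicate 13. The differences on chromosomes 3, 12, 17, 22 and 23 kept their sign under all 24 alternatives, but calls were lost in 3 of them for chromosome 3, 6 for 17, 8 for 12, 8 for 22 and 11 for 23. In tumours with under 5 other deviating autosomes chromosomes 22 and 23 differed by only 0.0085 and 0.0022. The number of chromosomes called, 5 by exact permutation of means, was 2 by an exact rank-sum test (3 and 34, of which 34 is not among the 5). N-named dogs gave 2 chromosomes, S-named dogs 0, tumours with under 5 other deviating autosomes 0 (with 2 low tumours left), neutered dogs 3, dogs other than Boxers 2, untreated dogs 2 and males 0. Leaving out 1 low tumour gave 2 to 7 chromosomes. The mean surplus of 4.19 deviating autosomes became 4.10 at a size limit of 0.2 (exact permutation p = 0.0716) and 2.95 to 4.78 with 1 tumour left out. The cause was not tested.

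Genes higher and lower off chromosome 27 numbered 37 and 234 with DESeq2, 52 and 6 with limma voom, 55 and 7 with no filter beyond 1 count in 2 libraries, 14 and 2 with the share of even counts added, 17 and 2 with the first principal component added, 2 and 0 in N-named dogs, 0 and 0 in S-named dogs, 0 and 0 in names numbered 11 to 16, 0 and 1 in those numbered 17 to 22, 0 and 0 in tumours with under 5 other deviating autosomes, 8 and 0 with the chromosome 17 score, 1 and 1 with the chromosome 3 score, 2 and 0 with both, and 3 and 0 in untreated neutered dogs. At an unadjusted p under 0.05 in edgeR, S-named dogs had 797 of 13199 genes off chromosome 27 and names numbered 11 to 16 had 684 of 17709. Tumours with under 5 other deviating autosomes had 814 of 17460. The main comparison had 1945 of 17922, so the shares in these 3 splits were smaller. Leaving out 1 low tumour gave 0 to 21 higher and 0 to 6 lower. The log2 fold change of ENSCAFG00000031014 turned to -0.71 in tumours with under 5 other deviating autosomes. Calls for the 4 genes named were lost in 11 of 27 alternatives for ENSCAFG00000006073, 12 of 25 for ENSCAFG00000031014, 18 of 24 for ENSCAFG00000000789 and 17 of 27 for ENSCAFG00000002489. Among the rest, 7 chromosomes in place of 4 followed the score when the median over genes was used. No paired analysis was possible because each dog gave 1 sample.

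With 7 low tumours, and 2 in some splits, a result that misses the threshold does not show that the groups are alike. Depth and the counting of both reads limit genes of low count most.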
